A study of Homo sapiens with 2 samples.

Results

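The ATG8 proteins and the cargo receptors of autophagy are described here as 10 genes, of 19775 that a single-gene probe set represented. They are the ATG8 genes GABARAP, GABARAPL1, GABARAPL2 and MAP1LC3B, the receptor genes SQSTM1, NBR1, OPTN and CALCOCO2, and the genes WIPI1 and ULK1, whose products act when an autophagosome starts to form. Every probe set that the platform annotation pairs with exactly 1 of these genes was taken, which gave 24 of 41091 single-gene probe sets, and each of the 10 genes had at least 1. PC-3, an established line of androgen-independent human prostate cancer cells, was exposed to RD (riccardin D, a macrocyclic bisbibenzyl from a liverwort) at 10 µmol/L for 24 h, or served as control. The dose is that of the study's supplementary material, and the treatment protocol gives the control the DMSO vehicle while its source name calls the cells untreated. RNA of each culture was hybridised to 1 Affymetrix HG-U133 Plus 2.0 array, on which a gene is read by 1 or more probe sets of short oligonucleotides. The RNA came from all cells of a culture, so a change in every cell cannot be told apart from a change in the share of cells that carry a transcript.

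Autophagy encloses cytoplasm in a double membrane and delivers it to the lysosome. ATG8 proteins are small ubiquitin-like proteins that are cut at their C-terminus and joined to the lipid phosphatidylethanolamine on the growing membrane, where cargo receptors bind them through a short LC3-interacting motif while holding ubiquitylated or otherwise marked cargo. ATG8 proteins and receptors inside the vesicle are themselves degraded in the lysosome, so that a transcript level gives only the supply side of the pathway and no measure of flux.

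Of the 10 genes, GABARAPL1, SQSTM1, MAP1LC3B and WIPI1 had at least 2-fold higher signals in RD-treated cells, and none had a 2-fold lower signal by its brightest probe set. GABARAPL1 was 8.17-fold higher, SQSTM1 3.32-fold, MAP1LC3B 2.85-fold and WIPI1 2.84-fold. The other 6 genes, GABARAP, GABARAPL2, NBR1, OPTN, CALCOCO2 and ULK1, lay between 0.821 and 1.32 of control. Signals here are MAS5 values on a linear scale. A gene was called higher or lower where 1 signal was at least 2-fold the other and also reached 66.9, the median over every signal deposited, hereafter the floor. Since neither culture was repeated, there is no replicate error and no p-value. As the only measurable error, which holds no spread between cultures, log2 differences of probe sets of the same gene scattered with an SD of 0.76 over 18518 probe sets that reached the floor and of 0.34 over 8576 that reached 377.4, the 75th percentile of all signals (genes with at least 2 such probe sets). The brightest probe sets of all 10 genes reached that percentile. By the same rule, 12.1% of the 12818 genes at or above the floor were called higher and 13.3% lower, against 4 of 10 genes (40%) and 0 of 10 here. The 10 genes and the rule were chosen with earlier results of these data known, so these shares are a description and not a test. The median log2 difference (RD minus control) of the 10 genes was 0.31, beside -0.0022 for all 12818 genes. Of their 24 probe sets, 10 were called higher and 1 lower, and 2 stayed under the floor on both arrays. The background for probe sets was 13.4% higher and 13.2% lower of 24934.

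**Figure D1:**
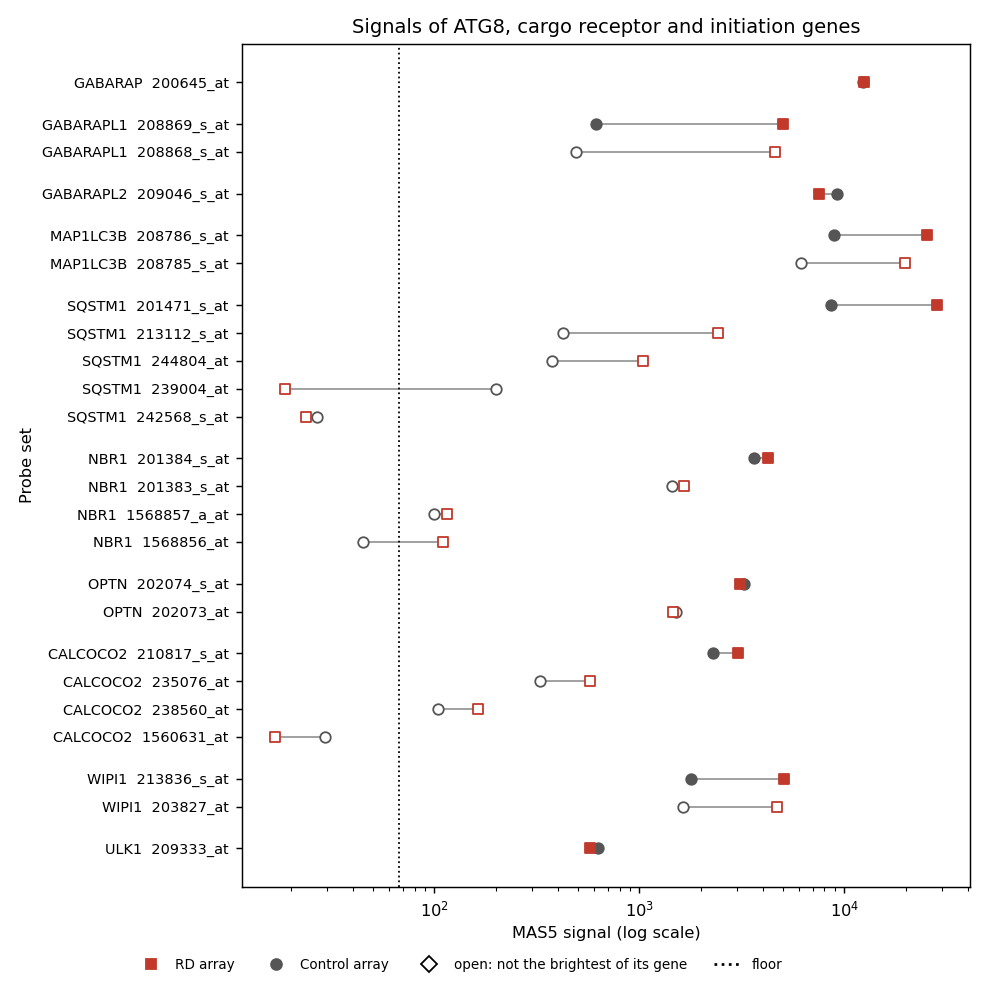
MAS5 signal (horizontal, log scale) of each of the 24 probe sets on the RD array (squares) and the control array (circles), joined by a line, with the floor of 66.9 dotted. Symbols are filled for the probe set that is brightest for its gene, and squares lie far to the right of circles for GABARAPL1, MAP1LC3B, WIPI1 and 3 probe sets of SQSTM1, while both symbols almost cover each other for GABARAP (12534.6 on the RD and 12305.9 on the control array).

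The ATG8 family split into genes with higher signals and genes with almost equal ones. GABARAPL1, a GABARAP paralogue also known as GEC1, had signals of 5002.9 in RD-treated and 612.5 in control cells by probe set 208869_s_at. Its second probe set, 208868_s_at, read 4586.8 in RD-treated and 490.2 in control cells, a 9.36-fold higher signal. The pair gave nearly the same log2 difference, 3.03 and 3.23. Of the 8094 genes whose brightest probe set reached the 75th percentile, 31 were higher in RD-treated cells by more than GABARAPL1, with lower genes not counted. MAP1LC3B encodes LC3B, the ATG8 protein most used as a marker of autophagosomes. Its signal was 25389.6 in RD-treated and 8915.1 in control cells by 208786_s_at. By 208785_s_at it was 19859.3 in RD-treated and 6152.9 in control cells, which is 3.23-fold higher. Both MAP1LC3B probe sets were thus higher by a like amount (1.51 and 1.69 on the log2 scale), and 289 of the 8094 genes were higher by more.

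GABARAP and GABARAPL2 were not called. GABARAP, the founding member of its branch of the family, had a signal of 12534.6 in RD-treated and 12305.9 in control cells (200645_at, log2 difference 0.03). GABARAPL2, also called GATE-16, had 7518.4 in RD-treated and 9163 in control cells (209046_s_at, log2 difference -0.29). Each gene had only this probe set. Of the further family members, MAP1LC3A had 290.2 in RD-treated and 345.8 in control cells by its brightest probe set, while the other 2 of its 3 probe sets at the floor were higher in RD-treated cells, by up to 0.60 on the log2 scale, and MAP1LC3B2 and MAP1LC3C stayed under the floor on both arrays. The suffix _s_at marks oligonucleotides that more than 1 transcript can share, and all probe sets of GABARAPL1, GABARAPL2 and MAP1LC3B carry it. Signal from a close copy cannot be told apart from theirs. For MAP1LC3B2, the near copy of MAP1LC3B, the own probe set read 3.3 in RD-treated and 8.9 in control cells.

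The promoters of the 4 ATG8 genes are shown because these paralogues differed in their change of signal. Whether promoter sequence has to do with that difference was not tested. Each line gives the 120 bases before the RefSeq start site in GRCh38.p14, 5′ to 3′ on the strand of the gene, with motif matches in capitals.
GABARAPL1, chr12:10212757-10212876 (+ strand): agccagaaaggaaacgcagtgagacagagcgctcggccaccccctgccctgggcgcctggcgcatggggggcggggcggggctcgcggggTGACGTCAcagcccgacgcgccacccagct
MAP1LC3B, chr16:87392216-87392335 (+ strand): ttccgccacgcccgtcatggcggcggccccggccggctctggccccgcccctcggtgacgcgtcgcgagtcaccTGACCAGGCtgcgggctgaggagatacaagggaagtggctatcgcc
GABARAP, chr17:7242450-7242569 (- strand): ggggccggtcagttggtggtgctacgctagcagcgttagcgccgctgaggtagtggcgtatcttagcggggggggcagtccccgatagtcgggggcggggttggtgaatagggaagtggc
GABARAPL2, chr16:75566259-75566378 (+ strand): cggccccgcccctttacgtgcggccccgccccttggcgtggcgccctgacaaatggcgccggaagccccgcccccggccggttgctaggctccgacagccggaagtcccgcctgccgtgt

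In windows running from 250 bases before to 50 after the start, 4 motifs were searched on both strands: the E-box CACGTG, which TFEB and its relatives bind, the C/EBP-ATF composite TGATGNAA, the antioxidant response element TGACNNNGC that NRF2 binds with small MAF proteins, and the cAMP response element TGACGTCA. The last was added after the sequences had been read. GABARAPL1 had a cAMP response element that begins 30 bases before the start site, a motif found in 2.26% of 22198 promoters of protein-coding genes. MAP1LC3B had an antioxidant response element that begins 46 bases before the start, as have 13.8% of promoters. CALCOCO2 was the other of the 10 genes with that element, on the opposite strand, and no matches overlapped. No window of the 10 genes held CACGTG (8.34% of promoters) or TGATGNAA (2.69%), and none of those of SQSTM1 (3 start sites) and WIPI1 held any of the 4 motifs. A match is a match of letters, and binding was not measured.

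Among the cargo receptors, SQSTM1 stood apart from NBR1, OPTN and CALCOCO2. SQSTM1 encodes p62, which binds ubiquitin and LC3 and also holds KEAP1, the inhibitor of NRF2. Its brightest probe set, 201471_s_at, read 28433.6 in RD-treated and 8570.7 in control cells. By 213112_s_at the signals were 2417.4 in RD-treated and 422.4 in control cells, which is 5.72-fold higher. By 244804_at, which has no shared-sequence suffix, they were 1046.7 in RD-treated and 373 in control cells, 2.81-fold higher. Thus 3 probe sets of SQSTM1 gave higher signals, although by unequal amounts. A further one went the other way. The dim probe set 239004_at had 18.7 in RD-treated and 199.2 in control cells, which is at least 2.98-fold lower when the RD signal is set to the floor. The remaining one, 242568_s_at, was under the floor on both arrays (23.7 in RD-treated and 26.6 in control cells). The position of these oligonucleotides on the transcripts was not analysed here, and whether 239004_at reads the main SQSTM1 transcript was not tested.

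NBR1, which like p62 binds ubiquitin and ATG8 proteins, had 4252 in RD-treated and 3641.9 in control cells (201384_s_at). The second bright probe set, 201383_s_at, had 1652 in RD-treated and 1441 in control cells, and 1568857_a_at had 115.1 in RD-treated and 99.9 in control cells. These 3 agreed on a small difference, 1.15-fold to 1.17-fold. Only the dimmest, 1568856_at, passed the rule, with 110.2 in RD-treated and 44.9 in control cells. Against the floor that is at least 1.65-fold higher, which falls short of 2-fold. OPTN encodes optineurin, a receptor for damaged mitochondria and bacteria. Its signals were 3092.8 in RD-treated and 3245.4 in control cells by 202074_s_at and 1454.5 in RD-treated and 1504.2 in control cells by 202073_at, so that its probe sets differed from control by -0.07 and -0.05 on the log2 scale.

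CALCOCO2 encodes NDP52, which recruits the autophagy machinery to invading bacteria and mitochondria. It had 3027.5 in RD-treated and 2292.5 in control cells by 210817_s_at (1.32-fold). By 235076_at it had 571.7 in RD-treated and 327.3 in control cells (1.75-fold), and by 238560_at 162.4 in RD-treated and 104.5 in control cells (1.55-fold). All 3 were above control and short of 2-fold, and 1560631_at was under the floor on both arrays (16.6 in RD-treated and 29.2 in control cells). Its nearest paralogues passed the rule. TAX1BP1, a receptor for protein aggregates, had 12244.9 in RD-treated and 5375.1 in control cells (2.28-fold higher), and CALCOCO1 had 989.3 in RD-treated and 451.1 in control cells (2.19-fold higher).

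WIPI1 and ULK1 act early in the pathway and differed from each other. WIPI1 encodes a WD-repeat protein that binds phosphatidylinositol 3-phosphate on the forming membrane. Its signals were 5065.4 in RD-treated and 1782.5 in control cells by 213836_s_at and 4693.8 in RD-treated and 1632.2 in control cells by 203827_at. Both probe sets, the second without a shared-sequence suffix, gave almost the same difference (1.51 and 1.52 on the log2 scale). Of the 8094 bright genes, 292 were higher by more. In the same family of 4 genes, WDR45 (WIPI4) had 6384.9 in RD-treated and 2261.7 in control cells (2.82-fold higher). WIPI2 was at 0.821 and WDR45B (WIPI3) at 0.874 of control. ULK1 encodes the kinase that starts autophagosome formation when mTORC1 releases it. It had 571.8 in RD-treated and 628.5 in control cells by its only probe set, 209333_at (0.910 of control). Of 5 further genes at or above the floor listed with the ULK complex, 3 were called higher, beside 12.1% of all genes. These were its complex partners ATG13 (2.55-fold), ATG101 (2.22-fold) and RB1CC1 (FIP200, 2.08-fold), while ULK3 was at 0.679 of control, ULK4 at 1.67-fold, and ULK2 under the floor on both arrays. Probe sets of ATG13 ranged from 0.85 to 1.59 on the log2 scale.

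**Figure D2:**
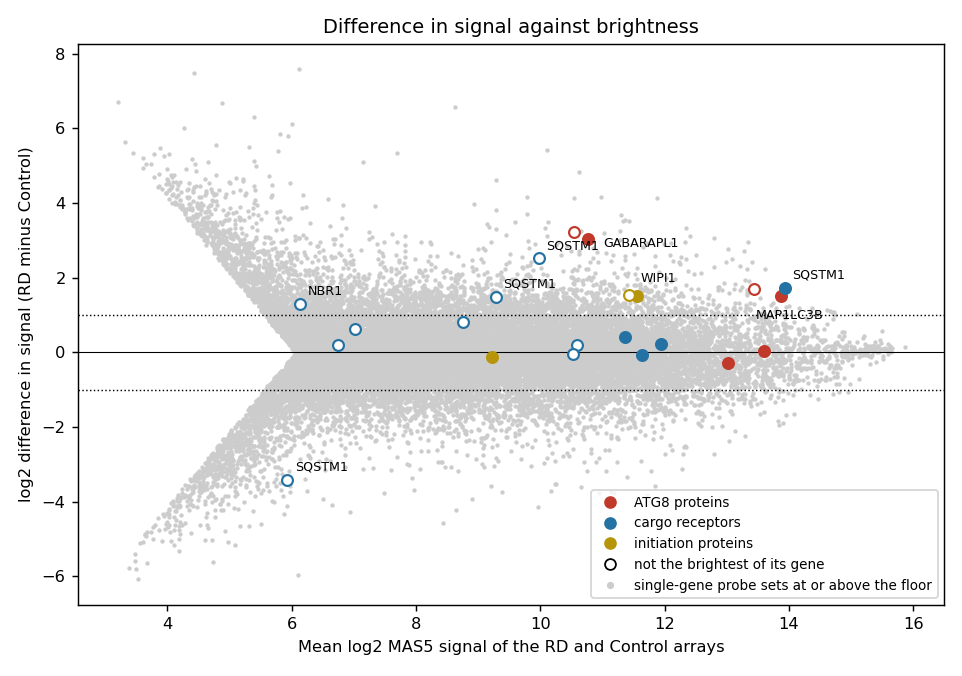
Log2 difference in signal (RD minus control, vertical) against mean log2 signal (horizontal) of the 24934 single-gene probe sets at or above the floor (grey) and of the 22 probe sets of the 10 genes among them (coloured by role, open where not the brightest of the gene). Dotted lines mark 2-fold, and the probe sets of GABARAPL1 at 3.03 and 3.23 lie near the upper edge of the cloud at their brightness, while that of SQSTM1 at -3.41 lies where the cloud is wide.

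Over the rest of the pathway, genes called higher were about as frequent as among all genes. Of 71 further autophagy genes listed, 67 were at or above the floor. Of these, 9 (13.4%) were called higher and none lower by the brightest probe set, beside the background of 12.1% and 13.3%. Their median log2 difference was 0.19. None of 11 genes of ATG8 processing and conjugation was called, and they ranged from 0.690 of control for ATG4D to 1.79-fold for ATG12. Their dimmer probe sets at the floor went past 2-fold both ways, from -1.52 (ATG10) to 1.19 (ATG4B) on the log2 scale. The PI3-kinase complex had 1 called gene of 9, NRBF2, a subunit that modulates the complex, at 3332.4 in RD-treated and 1100.8 in control cells (3.03-fold higher). Dimmer probe sets of that list ranged from -1.09 (AMBRA1) to 3.81 (RUBCN) on the log2 scale. Of 9 genes of phagophore growth, WDR45 and the lipid scramblase gene TMEM41B (2.11-fold) were called. Of 19 further genes listed with the cargo and organelle receptors, not all of them receptors (TBK1 and PINK1 are included), 3 were called. Besides TAX1BP1 and CALCOCO1, this was CCPG1, a receptor for turnover of the endoplasmic reticulum. It had 2232.5 in RD-treated and 624.9 in control cells (3.57-fold higher). None of 13 genes of autophagosome fusion was called by its brightest probe set, and their median was -0.20. Dimmer probe sets at the floor ranged from -5.15 (VPS33A) to 1.81 (VPS18) on the log2 scale. None of the ranges of dimmer probe sets in this paragraph was bounded against the floor. Their ends are therefore not to be read as measured sizes.

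**Figure D3:**
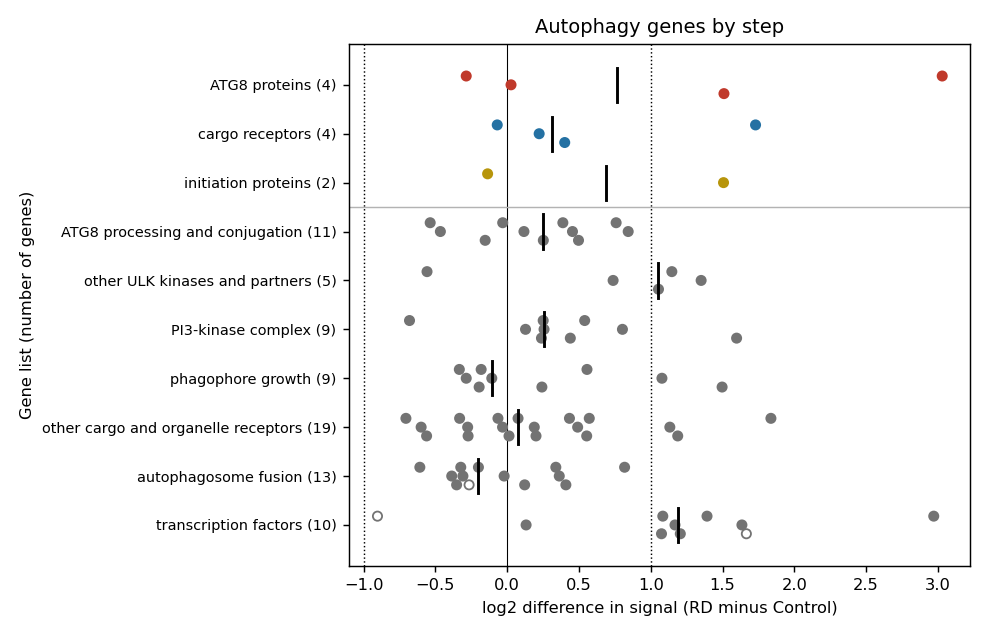
Horizontal axis, log2 difference in signal (RD minus control) by the brightest probe set of a gene. Genes that reach the floor are shown by role for the 10 genes (coloured) and by list for others (grey), with bars at the medians, dotted lines at 2-fold and open circles where 1 signal lay under the floor. No gene of the conjugation list (11 genes) or the fusion list (13 genes) lies past 2-fold, beside 12.1% of all genes called higher and 13.3% lower, and the lists were not tested against each other.

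The label of prostate cancer cells was set against marker genes. The simple epithelial keratin KRT18 had 15416.6 in RD-treated and 10224.2 in control cells, and KRT8 had 159.3 in RD-treated and 113.8 in control cells. KLK3, the gene of prostate-specific antigen, had 230.6 in RD-treated and 131.4 in control cells. The epithelial genes EPCAM and CDH1 and the androgen-driven gene TMPRSS2 were under the floor on both arrays. Of 7 markers of other cell types, PTPRC, CD3E, VWF and COL3A1 were under the floor on both arrays. Those that reached it on at least 1 array were COL1A1 (325.8 in RD-treated and 370.6 in control cells), PECAM1 (72.7 in RD-treated and 121.6 in control cells) and DES (72 in RD-treated and 41.5 in control cells).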

How the data were processed

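Total RNA of 2 PC-3 cultures was read on Affymetrix HG-U133 Plus 2.0 arrays. The authors deposited MAS5 signals, which are linear intensities from which background and mismatch signal have been taken off, and the sources used here give neither the MAS5 version nor the scaling target. Both arrays had been scaled alike, with trimmed means of 495.9 (RD) and 495.8 (control) after 2% of values had been cut at each end, so no further normalization was applied. The number of arrays limits the precision, and no test of the treatment was possible.

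Of 54613 probe sets, 41091 were paired with 1 gene by the platform annotation, 1801 with several genes and 11721 were unnamed. Updating names through the RefSeq gene table of GRCh38.p14 changed no symbol. The log2 difference was computed with no offset, and a gene took the value of its probe set with the highest mean log2 signal. All probe sets of the 10 genes are given. From the other lists, genes past the rule of size are named, up to 3 at each end. The members, lists and rules were chosen with earlier results of these data known, and a cAMP response element was added to the motifs after the promoters had been read. Motifs were searched in 22198 RefSeq promoters of protein-coding genes, where a gene with several starts counts once for each. The calling step was tested on simulated data. Its shifted genes were well above the floor and moved by more than 2-fold, with noise smaller than the scatter at the floor. Calls near 2-fold or near the floor were therefore not covered.

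Some genes are not reported here. As alternatives, arrays were quantile normalized, or RD signals were shifted by the median log2 difference of all probe sets (centring). Further, 17.1 (the 25th percentile) was added to each signal, signals were raised to the floor, and the floor was dropped or set to 377.4. Others were thresholds of 1.5-fold and 3-fold, the median over probe sets and only probe sets without a shared-sequence suffix. For that last setting, probe sets ending in _a_at were left out along with those ending in _s_at or _x_at. The scripts ran on pandas 2.3.3, numpy 2.4.6 and matplotlib 3.10.9 under Python 3.11.15.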

Additional observations from a re-analysis of the deposited data

Results flagged for a closer look

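A probe set that the annotation pairs with both GABARAPL3 and GABARAPL1 entered no comparison, because it names no single gene. Its signal was 12423 in RD-treated and 1523.3 in control cells, which is 8.16-fold higher. It was singled out as a signal above the control level in data that the comparisons left out, and how much of it comes from either gene was not tested.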

How the results depend on the processing

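The 4 genes called higher stayed 4 in number under centring, quantile normalization, the offset, no floor, signals raised to the floor, the higher floor of 377.4, the median over probe sets and a threshold of 1.5-fold. At 3-fold, 2 genes and 5 probe sets were called higher. The share of all genes called higher, 12.1% as reported, was 22.8% at 1.5-fold, 5.21% at 3-fold and 5.42% with signals raised to the floor. Without probe sets that carry a shared-sequence suffix, only 7 of the 10 genes were represented, and the 3 genes called higher, by 3 probe sets, were SQSTM1, WIPI1 and NBR1. The share of all genes called higher was then 12.7%. SQSTM1 was called by 244804_at, while its other probe set without the suffix, the dimmer 239004_at, was called lower. GABARAPL1, MAP1LC3B and GABARAPL2, with no probe set free of the suffix, dropped out. NBR1 was called by its dim probe set, at least 1.65-fold higher against the floor. Its brighter 1568857_a_at, 1.15-fold higher and not called, had been left out for the suffix _a_at. The call of NBR1 and the median at this setting therefore depend on that choice. The median log2 difference was then 0.80, with NBR1 at 1.30 and CALCOCO2 at 0.80 by their dimmer probe sets. With the floor at 377.4, 0 probe sets were called lower, since the single such probe set of SQSTM1 is dimmer than that. Of 57 single-gene values under these alternatives, 55 moved by less than the SD between probe sets and none of the called ones changed sign. No paired analysis was possible because each condition had 1 array, and for the same reason no replicate could be left out.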

Other observations

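Transcription factors known to act on autophagy genes were described as a further list, at the level of transcripts only. Of 10 such genes, all at or above the floor, 8 (80%) were called higher in RD-treated cells and none lower, beside 12.1% and 13.3% of all genes, with a median log2 difference of 1.19. The list itself was chosen with earlier results of these data known, so its share is a description and not a test. DDIT3, which encodes CHOP, had 14414.3 in RD-treated and 1838.1 in control cells. CEBPB, a partner of the ATF proteins, had 27763.1 in RD-treated and 8939.9 in control cells (3.11-fold higher). FOXO1 had 102.8 in RD-treated and 32.4 in control cells, which is at least 1.54-fold higher against the floor and so short of 2-fold. The MiT family, which binds the E-box, was not uniform, and its members were named after their values had been seen. MITF was 2.62-fold and TFE3 2.11-fold higher, whereas TFEB had 40.9 in RD-treated and 76.5 in control cells, with the RD signal under the floor. The probe sets of TFE3 ranged from 0.54 to 1.075 on the log2 scale, so not all passed 2-fold. ATF4 (2.12-fold), NFE2L2 (NRF2, 2.31-fold) and FOXO3 (2.25-fold), also named after their values had been seen, were the other genes called higher. For FOXO3 the probe sets ranged from 0.93 to 1.18 on the log2 scale. Protein amount and activity of these factors were not measured by the arrays.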
